A study of Mus musculus with 9 samples.

Results

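Bone morphogenetic proteins (BMPs) and transforming growth factor beta (TGF-beta) form one family of secreted signals, and the genes of that pathway were followed here in sensory ganglia of mice that had lost Prdm12. The set was a list of 46 gene symbols, chosen by their place in the pathway with earlier results of these data known. It held 15 ligands, 12 receptors, 8 SMADs, 4 ID target genes and 7 antagonists. All 46 were found among the 55536 genes counted. Of them, 44 were among the 17258 genes with enough counts to be tested, and the other two, Bmp8b and Acvr1c, were described by their level only.

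Lumbar dorsal root ganglia (DRG), which hold the cell bodies of the sensory neurons of the hind limb and lower trunk together with their glia, were sequenced in 9 libraries. The icKO group had 5 libraries from adult C57Bl6 mice with an inducible conditional knock-out of Prdm12, a transcription regulator gene of pain-sensing neurons. The control group had 4 libraries from adult C57Bl6 mice labelled wild type. The comparison was made 1 month after tamoxifen, and it asked which genes of adult ganglia depend on Prdm12. The sources used here do not give the Cre driver, the deleted exons, any allele or Cre carried by controls, or whether ganglia of several mice were pooled.

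In the canonical pathway a dimeric ligand brings together type II and type I receptor kinases, and the type I receptor phosphorylates a receptor-activated SMAD. BMP receptors act mainly on SMAD1, SMAD5 and SMAD9, TGF-beta and activin receptors mainly on SMAD2 and SMAD3, and both groups join SMAD4 to enter the nucleus. Secreted antagonists bind ligands before they reach the receptor, the inhibitory SMAD6 and SMAD7 act inside the cell, and the ID genes are well-known direct targets of the BMP branch. In the ganglion the pathway is known for roles in sensory neuron survival, in target-derived signalling to neurons and in the response of glia to nerve injury.

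The depth was 19607740 to 29481589 counts per library. Values below are CPM, the counts of a gene set to a common library total, which was first scaled with trimmed-mean factors, and each log2 fold change is icKO minus control with its standard error (SE). The quasi-likelihood test of edgeR was used, and its p-values were adjusted by Benjamini-Hochberg over all 17258 genes, with a threshold of 0.05. Prdm12 itself averaged 24.0 ± 1.41 CPM in icKO (SD, n = 5) and 134 ± 20 CPM in control (SD, n = 4), so the targeted gene followed the labels in every library. The neuron marker list was at 8965 to 10557 CPM in icKO and 9198 to 10612 CPM in control in sum, and that of satellite glia at 4131 to 4791 CPM in icKO and 3856 to 5045 CPM in control, as DRG tissue should have. In bulk tissue, fewer cells of a type and less RNA per cell cannot be told apart. The genes of the Y chromosome were high in icKO 1 and 2 and in control 1 and 3 and low in the other libraries. Xist, the X inactivation marker, was at 0.775 to 1.14 CPM in the former and 310 to 389 CPM in the latter. Among the low libraries, icKO 4 had the highest Y-linked sum, 3.58 CPM against 0.104 to 0.67 CPM. Sex is not among the labels used here, so within-class values are given beside each called gene. No gene of any of the 13 marker lists passed the test.

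The proximal promoters of 4 members are shown because the ID genes and Smad6 are the textbook transcriptional outputs of BMP signalling and Id2 was one of the members that changed. Each is the RefSeq promoter on GRCm38.p6 (mm10), 300 bases from 250 before to 50 after the annotated start, written 5′ to 3′ on the strand of the gene. Id2 is chr12:25096043-25096342 on the minus strand, Id3 is chr4:136143572-136143871 on the plus strand, Id4 is chr13:48260866-48261165 on the plus strand and Smad6 is chr9:64022010-64022309 on the minus strand. Capitals mark matches, on either strand, to 3 SMAD-related motifs, and no 2 marked matches overlap. They are the palindrome GTCTAGAC, the short box CAGAC, which reads as GTCTG when it lies on the opposite strand, and the GC-rich element GGCGCC.
Id2: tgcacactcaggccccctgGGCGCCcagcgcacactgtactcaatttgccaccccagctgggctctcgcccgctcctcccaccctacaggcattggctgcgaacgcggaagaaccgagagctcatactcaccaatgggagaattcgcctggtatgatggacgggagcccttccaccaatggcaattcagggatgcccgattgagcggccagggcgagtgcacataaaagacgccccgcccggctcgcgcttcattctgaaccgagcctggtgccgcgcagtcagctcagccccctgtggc
Id3: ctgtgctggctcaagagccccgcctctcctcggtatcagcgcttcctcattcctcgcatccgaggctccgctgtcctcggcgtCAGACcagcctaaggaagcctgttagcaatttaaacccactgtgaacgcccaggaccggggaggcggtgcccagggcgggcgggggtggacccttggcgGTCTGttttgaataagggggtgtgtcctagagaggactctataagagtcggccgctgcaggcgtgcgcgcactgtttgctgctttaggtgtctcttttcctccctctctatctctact
Id4: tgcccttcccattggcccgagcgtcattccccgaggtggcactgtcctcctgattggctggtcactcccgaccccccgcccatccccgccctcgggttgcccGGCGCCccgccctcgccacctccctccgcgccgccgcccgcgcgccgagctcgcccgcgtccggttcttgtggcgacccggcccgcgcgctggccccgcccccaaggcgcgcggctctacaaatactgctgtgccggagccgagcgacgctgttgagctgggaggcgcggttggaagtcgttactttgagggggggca
Smad6: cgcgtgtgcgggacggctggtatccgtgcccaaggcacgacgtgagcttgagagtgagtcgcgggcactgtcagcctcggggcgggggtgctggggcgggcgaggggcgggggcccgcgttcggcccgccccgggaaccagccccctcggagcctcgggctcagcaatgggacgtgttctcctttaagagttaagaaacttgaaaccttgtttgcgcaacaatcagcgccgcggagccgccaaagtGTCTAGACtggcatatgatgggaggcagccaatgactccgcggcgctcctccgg
The Id2 promoter held 1 GGCGCC and no CAGAC, and that of Id4 likewise held 1 GGCGCC, whereas Id3 held 2 short boxes and no GGCGCC. Smad6 held the only palindrome among the 31 members with a promoter in the RefSeq table. Over all 32851 promoters of the same length, the palindrome was in 0.213%, the short box in 49.6% and the GC-rich element in 11.9%. Counted by gene, with a match in any of its promoters, 14 of the 31 members held the short box and 11 the GC-rich element. The shares over all promoters were counted by promoter, so the units differ. A match of letters is a description and not a binding site. The other ID gene, Id1, and Ism1 were among the 15 members with no entry in the table.

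Over the whole pathway list, 2 of the 44 tested members rose in icKO, Ism1 and Id2, none fell and 42 did not pass the test. Ism1, grouped with the antagonists, rose 2.06-fold, and Id2, a BMP target gene, rose 1.40-fold. Across all tested genes 0.852% passed, 0.475% as higher and 0.377% as lower, and among members it was 4.55%, a share that rests on those 2 genes alone. Before adjustment, 9 members had a p under 0.05, 6 higher and 3 lower in icKO, 20.5% of those tested, beside 11.1% of all genes. For 5 members no icKO library fell within the range of control, 3 higher and 2 lower, which was 11.4% of members beside 4.5% of all genes. With DESeq2 on the same counts 5 members passed, Ism1, Id2 and Tgfbr1 as higher and Inhbb and Gdf11 as lower, beside 2.41% of all genes tested by that tool. The members' median log2 fold change was 0.04, against 0.0 over all tested genes, and their median size of change was 0.11 on the log2 scale, against 0.09.

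**Figure D1:**
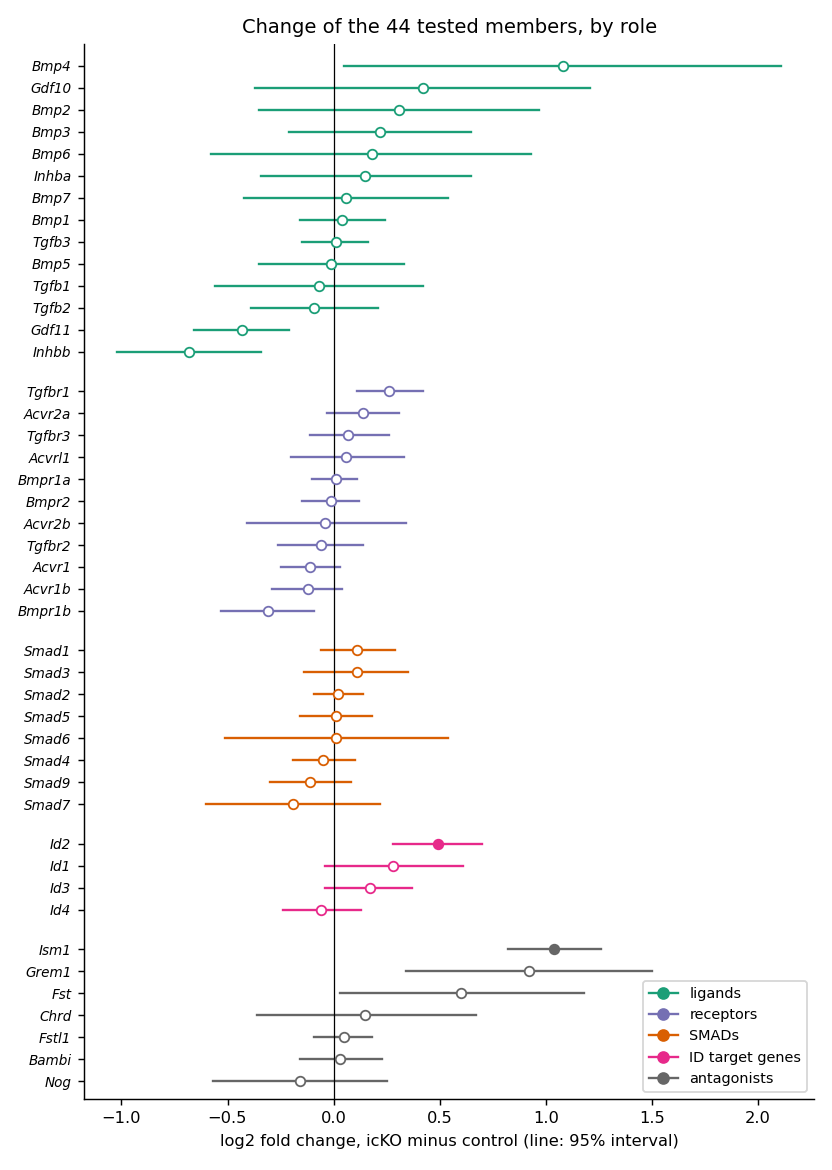
Log2 fold change, icKO minus control, of the 44 tested members with 95% intervals, grouped by role; filled points passed the edgeR test. Only Id2 at 0.49 and Ism1 at 1.04 are filled, Bmp4 has the widest interval at 0.05 to 2.11, and the SMADs and most receptors lie close to 0.

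The pathway was present at every level in both groups, from ligands to targets. Levels of different genes were compared per kilobase of annotated exon. Fstl1, which encodes a secreted follistatin-like glycoprotein, stood far above every other member at 554 ± 24.8 CPM per kb in icKO (SD, n = 5) and 536 ± 44.8 in control (SD, n = 4). Next came the target gene Id3, at 30.2 ± 4.42 CPM per kb in icKO and 26.8 ± 1.2 in control, and the type II BMP receptor gene Bmpr2, at 20.3 ± 0.754 in icKO and 20.4 ± 1.75 in control. No ligand gene exceeded 6.13 CPM per kb in either group mean, and each ID gene was above that level in both groups. Receptor and SMAD genes lay on both sides of it. Among receptors, Bmpr1a was at 13.9 in icKO and 13.8 in control, and Bmpr1b at 1.19 and 1.47. Among SMADs, Smad9 was at 12.0 in icKO and 13.0 in control, and Smad3 at 1.12 and 1.04.

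**Figure D2:**
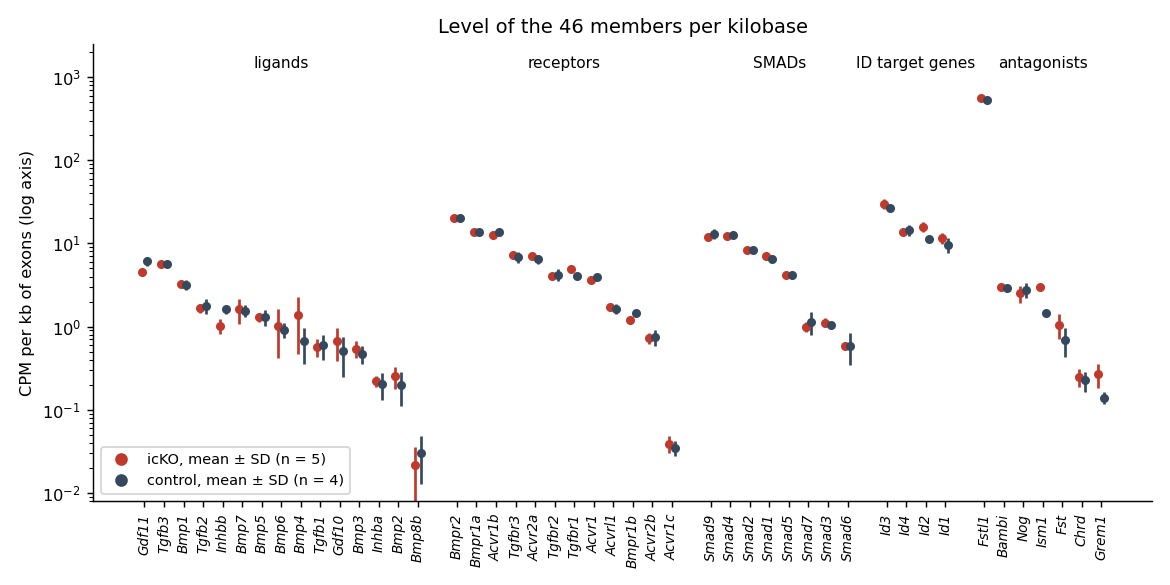
Level of each of the 46 members in CPM per kilobase of exons on a log axis, as group mean ± SD for icKO (red, n = 5) and control (blue, n = 4), ordered within each role. Fstl1 is far above the rest in both groups, and Bmp8b and Acvr1c, which were not tested, are the lowest.

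None of the 14 tested ligand genes passed the test, and their median log2 fold change was 0.05. The 2 with the smallest p both encode ligands that signal to SMAD2 and SMAD3, and both were lower in icKO without passing. Inhbb, the beta B subunit of activins and inhibins on chromosome 1 from 119415465 to 119422248, was at 3.87, 5.58, 4.6, 3.13 and 4.54 CPM in icKO 1 to 5, against 6.05, 6.70, 8.16 and 6.90 CPM in control 1 to 4. Every icKO library lay below every control library, with icKO 2 nearest to the controls. Its log2 fold change was -0.68 (SE 0.16, 95% interval -1.02 to -0.34), and the adjusted p from edgeR was 0.069. It passed without icKO 2 (adjusted p = 0.035), with no filter on low counts (0.0145) and with DESeq2 (0.00434).

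Gdf11, a TGF-beta family ligand known for patterning of the embryonic axis, lies on chromosome 10 from 128882295 to 128891718. It was at 16.6, 19.9, 21.0, 15.9 and 18.9 CPM in icKO 1 to 5, against 24.9, 20.6, 26.4 and 27.8 CPM in control 1 to 4. The groups overlapped only because control 2, the lowest control, was just under icKO 3. This gave a log2 fold change of -0.43 (SE 0.10, 95% interval -0.66 to -0.21) and edgeR's adjusted p was 0.081. It passed without control 2 (adjusted p = 0.0338), with no filter on low counts (0.0146) and with DESeq2 (0.00992). Gdf11 and Tgfb3 had the highest levels per kb among the ligands. Gdf11 was at 4.54 ± 0.536 CPM per kb in icKO and 6.13 ± 0.771 in control, and Tgfb3, a TGF-beta isoform gene, at 5.72 ± 0.391 in icKO and 5.69 ± 0.326 in control. The order of this pair was thus Tgfb3 first in icKO and Gdf11 first in control, although in control their difference was smaller than the SD of Gdf11.

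The other TGF-beta and activin ligand genes differed little between the groups. Tgfb3 ranged from 17.6 to 20.6 CPM in icKO and from 18.5 to 20.9 CPM in control, a log2 fold change of 0.01 (95% interval -0.15 to 0.16). Tgfb2 and Tgfb1, the other TGF-beta isoforms, had log2 fold changes of -0.09 (95% interval -0.39 to 0.21) and -0.07 (-0.56 to 0.42). Inhba, the beta A subunit of activins, had few counts, 23 to 45 per library, and a log2 fold change of 0.15 (SE 0.23). Bmp1, next among the ligands per kb, encodes a metalloprotease that processes procollagen and was listed with the BMPs by name. It was at 27.0 to 32.6 CPM in icKO and 25.1 to 32.5 CPM in control.

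The BMP ligand genes proper varied more among libraries of one group than between the groups. Bmp4, a ligand of broad developmental use, had the largest log2 fold change of any member, 1.08, but with an SE of 0.48, and did not pass (edgeR, adjusted p = 0.424). It was at 2.59, 0.968, 4.84, 5.59 and 1.5 CPM in icKO 1 to 5, against 0.916, 1.02, 1.6 and 2.42 CPM in control 1 to 4. The high values were those of icKO 3 and icKO 4, and icKO 2 was below 3 of the 4 controls. Bmp6 reached 7.94 CPM in icKO 3, against 1.7 to 4.24 CPM in the other icKO libraries and 2.49 to 4.33 CPM in control. Bmp7 reached 10.1 CPM in the same library, against 3.91 to 6.54 CPM in the other icKO libraries and 4.88 to 7.27 CPM in control. Both genes encode BMPs that share their receptors, and they were singled out, with Bmp4 and Gdf10, after their values were seen.

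Libraries also differed in markers of meninges and fibroblasts, and not all of these markers followed the ligand values. Ptgds, the prostaglandin D synthase gene that is abundant in meninges, was at 27.3, 8.06, 725, 137 and 23.5 CPM in icKO 1 to 5, against 26.9, 31.4, 33.2 and 93.8 CPM in control 1 to 4. Of the 12 markers of the list, 4 were highest in icKO 3 (Ptgds, Slc6a13, Crabp2 and Igf2), 7 in icKO 4 (the collagen genes and Dcn, Lum, Pdgfra and Foxc1) and 1 in icKO 2. The list summed to 878 to 2286 CPM in icKO and 709 to 1488 CPM in control. Without Ptgds, the other 11 summed to 2149 CPM in icKO 4, the highest library, but to 1306 CPM in icKO 3. The latter sum was below icKO 1 and 5 and below control 2 to 4 at 1394 to 1454 CPM. Dcn and the collagen genes made up most of it, with Dcn alone at 698 CPM in icKO 3. Slc6a13, Crabp2 and Igf2 were at 12.7, 5.5 and 2.61 CPM there and hardly entered the sum. None of the 12 was at 0 in all libraries, 11 could be tested and none passed. Gdf10, a BMP3-related ligand gene, was likewise highest in icKO 4, at 5.30 CPM, and lowest in icKO 2, at 1.47 CPM. A fit without icKO 3, highest in Ptgds, and control 4, highest in spinal cord markers, was chosen after seeing the data. It kept icKO 4, and its count of higher members stayed at 2 (Ism1 and Id2) and that of lower members at 0. Neither called gene is a ligand, so these counts do not bear on the ligand values. The part of tissue composition in the ligand values was not tested.

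**Figure D3:**
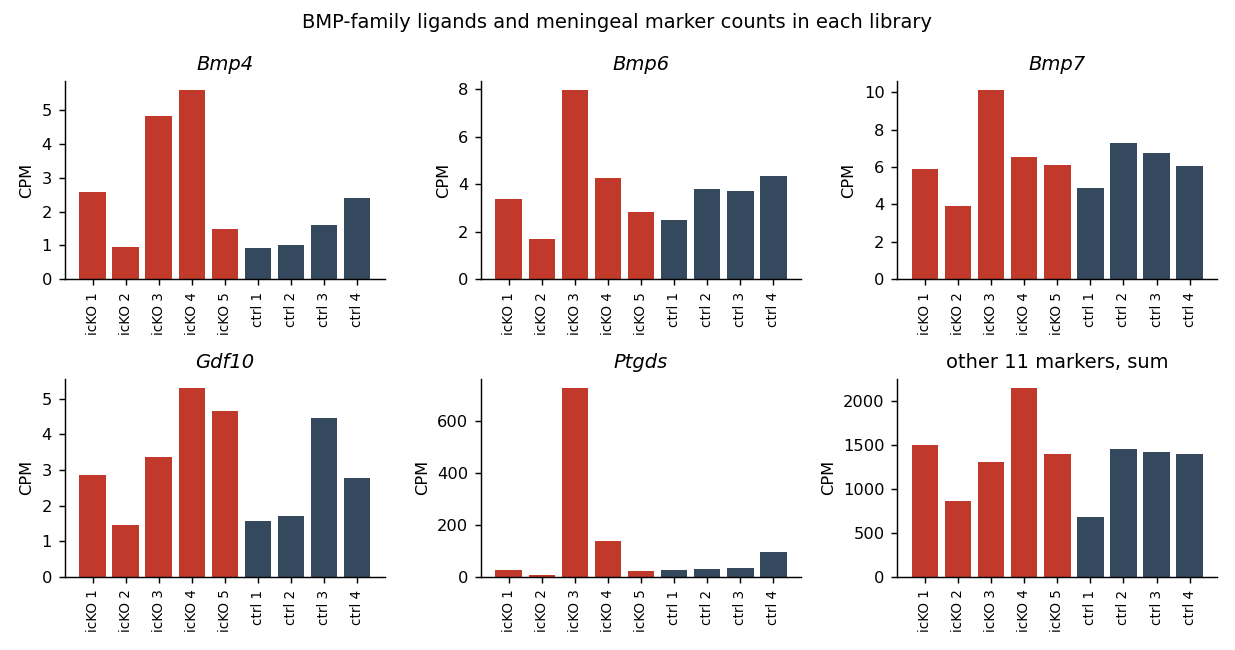
CPM in each library (icKO 1 to 5 in red, control 1 to 4 in blue) of 4 BMP-family ligand genes, of the meningeal marker Ptgds and of the other 11 fibroblast and meninges markers in sum. Bmp6, Bmp7 and Ptgds (725 CPM) are highest in icKO 3, Bmp4, Gdf10 and the sum of the other markers (2149 CPM) in icKO 4, and that sum is 1306 CPM in icKO 3.

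The remaining BMP ligand genes had wide intervals or little change. Bmp2 had a log2 fold change of 0.31 (95% interval -0.35 to 0.97) on 9 to 32 counts per library. Bmp3, which opposes other BMPs, and Bmp5 had 0.22 (-0.21 to 0.65) and -0.01 (-0.35 to 0.33). Of the Bmp5 exon bases, 46.7% are shared with an antisense transcript annotated on the other strand, whose own mean was 0.0594 CPM. Of those of Bmp6, 5.74% are shared with Txndc5 at 98.5 CPM, and since strand use in counting is not stated, part of the Bmp6 counts may belong to Txndc5. Bmp8b was at 0 to 0.155 CPM in icKO and 0.0367 to 0.206 CPM in control, with at most 4 counts in a library.

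None of the 11 tested receptor genes passed, and their median log2 fold change was -0.01, with a range of -0.31 to 0.26. Both ends of this range, Tgfbr1 and Bmpr1b, came from genes whose groups did not overlap. They made up 18.2% of the 11 receptors, beside 4.5% of all tested genes, a share that rests on this pair alone. Tgfbr1, the type I TGF-beta receptor kinase on chromosome 4 from 47353222 to 47414931, was at 34.0, 32.2, 32.5, 33.2 and 28.9 CPM in icKO 1 to 5, against 26.4, 23.8, 28.9 and 28.4 CPM in control 1 to 4. All icKO libraries were above all controls, but icKO 5 and control 3 lay next to each other. On the log2 scale Tgfbr1 differed by 0.26 (SE 0.07, 95% interval 0.11 to 0.42). It did not pass with edgeR (adjusted p = 0.134) and did with DESeq2 (adjusted p = 0.0467).

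Bmpr1b, a type I BMP receptor gene on chromosome 3 from 141837136 to 142169425, went the other way. It was at 7.64, 7.28, 6.34, 7.69 and 6.44 CPM in icKO 1 to 5, against 7.77, 9.15, 9.51 and 8.60 CPM in control 1 to 4. Each icKO library was below each control, and icKO 4 and control 1 were nearly level. Its estimate was -0.31 on the log2 scale (SE 0.10, 95% interval -0.53 to -0.09), which did not pass (edgeR, adjusted p = 0.237).

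The estimates closest to 0 were those of the most abundant receptor genes. Bmpr2, the type II BMP receptor, was at 352 to 382 CPM in icKO and 341 to 412 CPM in control, a log2 fold change of -0.01 (SE 0.06). Bmpr1a, another type I BMP receptor, was at 83.0 to 91.0 CPM in icKO and 84.2 to 90.5 CPM in control. Its log2 fold change was 0.01, with a 95% interval of -0.10 to 0.11. Per kb, Bmpr1a was at 13.9 ± 0.521 in icKO and 13.8 ± 0.417 in control, well above Bmpr1b at 1.19 ± 0.109 in icKO and 1.47 ± 0.127 in control. Acvr1b, the type I activin receptor and next of the receptors per kb, was at 49.2 to 60.5 CPM in icKO and 55.7 to 64.8 CPM in control, with a log2 fold change of -0.12 (SE 0.08).

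The other receptor genes were within ±0.14 on the log2 scale. Acvr2a, a type II activin receptor, was the highest of them at 0.14 (95% interval -0.03 to 0.31), and 7.84% of its exon bases are shared with Orc4 at 49.7 CPM on the other strand. Acvr1, a type I BMP receptor, had -0.11 (95% interval -0.25 to 0.03). Tgfbr2, the type II TGF-beta receptor, had -0.06 (-0.26 to 0.14), and Tgfbr3, the co-receptor betaglycan, 0.07 (-0.11 to 0.26). The endothelial type I receptor gene Acvrl1 had 0.06 (-0.20 to 0.33) and the type II activin receptor gene Acvr2b -0.04 (-0.41 to 0.34). Acvr1c, a type I receptor gene that signals for nodal and activins, was at 0.279 to 0.465 CPM in icKO and 0.255 to 0.403 CPM in control and was not tested.

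The 8 SMAD genes had the narrowest range of any role, -0.19 to 0.11 on the log2 scale, and none had an unadjusted p under 0.05. The 2 with the smallest p were both BMP-branch SMADs. Smad1 was at 43.1, 47.7, 43.6, 37.7 and 50.5 CPM in icKO 1 to 5, against 42.7, 36.8, 41.6 and 43.4 CPM in control 1 to 4, and Smad9 at 68.1, 64.7, 70.7, 56.3 and 63.6 CPM in icKO, against 63.8, 59.9, 78.6 and 77.1 CPM in control. Both overlapped widely, and their log2 fold changes were 0.11 (SE 0.08, edgeR adjusted p = 0.689) for Smad1 and -0.11 (SE 0.09, edgeR adjusted p = 0.733) for Smad9. In neither group did Smad9 and Smad4, the common partner SMAD, differ in level by more than their spread, at 12.0 ± 1.02 and 12.4 ± 0.479 CPM per kb in icKO and 13.0 ± 1.76 and 12.8 ± 1.27 in control.

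Smad2, the TGF-beta branch SMAD that came next per kb, was at 71.5 to 77.4 CPM in icKO and 66.7 to 77.1 CPM in control, a log2 fold change of 0.02 with a 95% interval of -0.09 to 0.14. Its partner in that branch, Smad3, was at a lower level, 1.12 ± 0.139 CPM per kb in icKO and 1.04 ± 0.0571 in control, beside 8.45 ± 0.267 and 8.31 ± 0.556 for Smad2. Smad4 and Smad5 had log2 fold changes of -0.05 (95% interval -0.19 to 0.10) and 0.01 (-0.16 to 0.18). The inhibitory SMADs, which are themselves induced by the pathway, were the least precise, with 0.01 (-0.51 to 0.54) for Smad6 and -0.19 (-0.60 to 0.22) for Smad7. Smad6, whose promoter above holds the palindrome, was at 1.75 to 2.22 CPM in icKO, inside the 1.10 to 2.66 CPM of control.

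One of the 4 ID target genes rose. ID proteins lack a DNA-binding region and hold back basic helix-loop-helix factors. Id2, on chromosome 12 from 25093799 to 25097140, was at 43.7, 39.3, 31.3, 43.1 and 35.2 CPM in icKO 1 to 5, against 25.4, 26.8, 29.3 and 28.3 CPM in control 1 to 4. All icKO libraries were above all controls, with icKO 3 the closest to them and icKO 1 and icKO 4 the farthest. The mean was 38.5 ± 5.28 CPM in icKO (SD, n = 5) and 27.5 ± 1.71 CPM in control (SD, n = 4), a log2 fold change of 0.49 (SE 0.10, 95% interval 0.28 to 0.70), and edgeR's adjusted p was 0.0333. The call was close to the threshold: with single libraries left out it held in 2 of 9 cases, without icKO 3 (adjusted p = 0.00921) and without icKO 5 (0.0477), and it was lost without icKO 1 (0.0951), icKO 2 (0.0683), icKO 4 (0.0767), control 1 (0.0913), control 2 (0.0685), control 3 (0.0584) or control 4 (0.0622). The log2 fold change itself stayed between 0.44 and 0.56 over those 9 fits. Within the libraries with high counts of Y-linked genes it was 0.61 (adjusted p = 0.193, 2 against 2) and within those with low counts 0.41 (adjusted p = 0.662, 3 against 2). Skeletal muscle markers were highest in icKO 1 and control 2, at 31.5 and 51.2 CPM in sum. Without both libraries, a pair chosen after seeing the data, Id2 was at 0.44 and did not pass (edgeR, adjusted p = 0.149). Without icKO 1 alone the log2 fold change was likewise 0.44. The part of muscle tissue in the Id2 values was not tested.

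Id1 had the next smallest p of its role. It was at 17.1, 11.7, 13.6, 13.7 and 12.0 CPM in icKO 1 to 5, against 12.9, 8.17, 13.2 and 10.5 CPM in control 1 to 4. The groups overlapped, with icKO 1 alone above every control by a clear margin and control 2 alone far below. Its estimate was 0.28 on the log2 scale (SE 0.15, 95% interval -0.04 to 0.61) and did not pass (edgeR, adjusted p = 0.526). Without control 2 it was 0.16, and without icKO 1 and control 2 together 0.07. Id3 was at 42.9 to 61.4 CPM in icKO and 44.8 to 49.4 CPM in control, a log2 fold change of 0.17 (SE 0.10), and Id4 at 50.6 to 54.5 CPM in icKO and 48.4 to 67.0 CPM in control, a log2 fold change of -0.06 (SE 0.08). Per kb, Id2 was at 15.8 ± 2.17 in icKO and 11.3 ± 0.701 in control, and Id4 at 13.8 ± 0.447 in icKO and 14.4 ± 2.23 in control, so that only Id3 was above both in each group. No test compared the change of Id2 with that of the other ID genes.

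Of the 7 genes listed as antagonists, 1 rose and none fell, and the median log2 fold change of the role was 0.15. The gene that rose, Ism1, was placed in this role by the list, and no action of its product on the pathway was measured. Ism1 encodes isthmin 1, a secreted protein with a thrombospondin repeat, and lies on chromosome 2 from 139678178 to 139758581. It was at 9.22, 7.86, 8.78, 8.43 and 9.83 CPM in icKO 1 to 5, against 4.29, 3.96, 4.56 and 4.33 CPM in control 1 to 4. The groups were wide apart and tight within themselves, and the lowest icKO library was far above the highest control. The mean was 8.82 ± 0.750 CPM in icKO (SD, n = 5) and 4.28 ± 0.245 CPM in control (SD, n = 4), on 84 to 274 counts per library. This was a log2 fold change of 1.04 (SE 0.10, 95% interval 0.82 to 1.26), and the adjusted p from edgeR was 0.000386. Within the libraries with low Y-linked counts it was 1.12 (adjusted p = 0.0364), and within those with high counts it was 0.96 but did not pass (adjusted p = 0.202, 2 against 2).

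Grem1, which encodes gremlin 1, a secreted BMP antagonist, had the second smallest p among the antagonists. It was at 1.08, 0.620, 1.22, 1.07 and 1.58 CPM in icKO 1 to 5, against 0.550, 0.612, 0.692 and 0.464 CPM in control 1 to 4. All icKO libraries but icKO 2 were above every control, and icKO 2 lay within them. On 9 to 40 counts per library, the estimate was 0.92 on the log2 scale (SE 0.27, 95% interval 0.34 to 1.5) and did not pass (edgeR, adjusted p = 0.161). Fst, which encodes the activin-binding follistatin and was singled out after its values were seen, was at 0.60 on the log2 scale (SE 0.27) without passing (edgeR, adjusted p = 0.424). It was at 3.17 to 7.13 CPM in icKO and 2.45 to 4.95 CPM in control, where control 1 was above 3 of the icKO libraries.

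**Figure D4:**
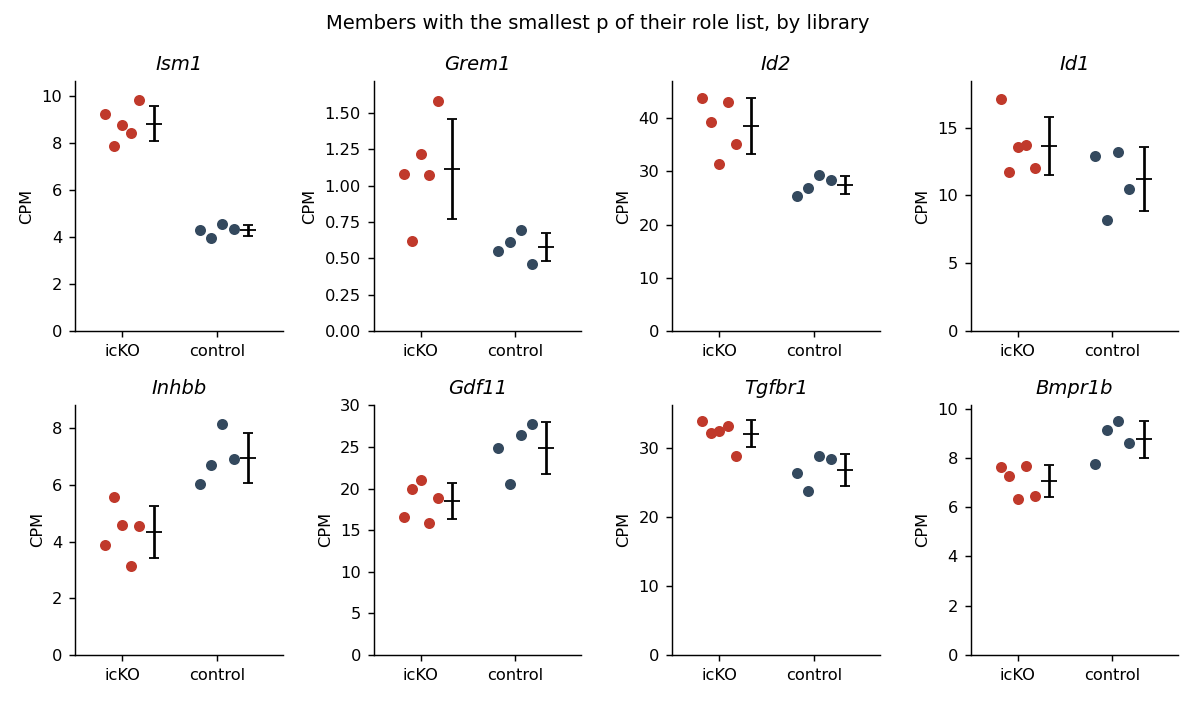
CPM of each library (points) with the group mean and SD (bars) for 8 members from 4 roles, icKO (n = 5) left of control (n = 4), from the genes with the smallest p of their role. Ism1 and Id2 passed the test; Inhbb, Tgfbr1 and Bmpr1b also have groups that do not overlap but did not pass, and Gdf11, Grem1 and Id1 overlap.

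The other antagonist genes had smaller estimates than Grem1 and Ism1, and the difference from Ism1 was not tested. Nog, which encodes noggin, was at 3.13 to 5.80 CPM in icKO and 3.61 to 5.67 CPM in control, a log2 fold change of -0.16 (95% interval -0.57 to 0.25). Chrd, which encodes chordin, had a log2 fold change of 0.15 (-0.36 to 0.67) on 24 to 58 counts per library. Bambi, a pseudoreceptor gene that dampens TGF-beta family signals, was at 13.1 to 16.6 CPM in icKO and 14.0 to 15.5 CPM in control, a log2 fold change of 0.03 (SE 0.09). Fstl1 was at 2629 to 2934 CPM in icKO and 2346 to 2851 CPM in control, a log2 fold change of 0.05 (95% interval -0.09 to 0.18). Bambi, Ism1 and Nog were close in level in icKO, at 2.97 ± 0.323, 2.98 ± 0.253 and 2.51 ± 0.593 CPM per kb, whereas in control Ism1 was the lowest of them at 1.44 ± 0.0828, below Bambi at 2.89 ± 0.155 and Nog at 2.79 ± 0.600.

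The rest of the pathway was covered by a further 113 genes listed by function, of which 92 were tested. Among these, 1 rose, 1 fell and 90 did not pass, or 2.17% called, and the median log2 fold change was -0.0, as over all genes. Skor2, whose product is a SKI-family corepressor, was the gene that rose, at 22.2 to 31.8 CPM in icKO, with icKO 4 lowest and icKO 5 highest, and 11.2 to 14.0 CPM in control. The groups lay wide apart, with a difference of 1.12 on the log2 scale (SE 0.10; edgeR, adjusted p = 0.000385). The SKI family is known to repress SMAD-dependent transcription. The log2 fold change of Skor2 was 1.07 among libraries of the high Y-linked class, where it did not pass (adjusted p = 0.0953), and 1.17 in the low class, where it did (adjusted p = 0.0364). The other tested intracellular modulators, 26 genes for SMAD ubiquitin ligases, corepressors, phosphatases and adaptors, did not pass, and the median of all 27 was -0.02.

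Itgb6, the beta subunit of an integrin that releases active TGF-beta from its latent complex, was the gene that fell. It was at 1.55, 1.7, 1.25, 1.36 and 1.66 CPM in icKO 1 to 5, against 3.63, 4.82, 3.35 and 2.89 CPM in control 1 to 4. No icKO library came near the lowest control. On 33 to 118 counts per library, the difference was -1.29 on the log2 scale (SE 0.17, 95% interval -1.66 to -0.92; edgeR, adjusted p = 0.00299). It was -1.09 in the high Y-linked class (adjusted p = 0.284) and -1.45 in the low class (adjusted p = 0.11), and passed in neither. The other TGF-beta-activating integrin of the list, Itgb8, was far more abundant, at 9.02 CPM per kb in icKO and 9.66 in control, beside 0.212 and 0.516 for Itgb6, and had a log2 fold change of -0.10 (SE 0.08). Itgb8 was chosen for this comparison after its values were seen.

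Runx2, Ltbp3 and Vdr, from the other pathway genes with the next smallest p, were lower in icKO, and none of the 3 passed with edgeR on filtered counts. Runx2 is a transcription factor gene known as a BMP target in bone. It was at 5.08 to 6.29 CPM in icKO and 6.78 to 8.24 CPM in control, with groups that did not overlap and an estimate of -0.40 on the log2 scale (SE 0.10; edgeR, adjusted p = 0.111), and it passed with DESeq2 (adjusted p = 0.0421). Ltbp3, a latent TGF-beta binding protein gene, was at 85.9 to 92.9 CPM in icKO and 98.3 to 118 CPM in control, an estimate of -0.22 on the log2 scale (SE 0.06; edgeR, adjusted p = 0.134), and it too passed with DESeq2 (adjusted p = 0.0394). Vdr, the vitamin D receptor gene, was at 0.740 to 0.942 CPM in icKO and 0.876 to 3.28 CPM in control, with control 3 far above the other controls and an estimate of -1.12 on the log2 scale (SE 0.32; edgeR, adjusted p = 0.148). With no filter on low counts Vdr passed (adjusted p = 0.0353). The 7 other ligand genes tested and the 5 other receptors and coreceptors had no gene with an unadjusted p under 0.05. Among 22 further extracellular antagonists and modulators none passed. Before adjustment 3 higher and 3 lower of them, or 27.3%, had an edgeR p under 0.05. Among 17 other target genes none passed, and 2, both lower, or 11.8%, had such a p before adjustment. Over all 92 other pathway genes tested the share was 13.0%, beside 11.1% of all tested genes.

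**Figure D5:**
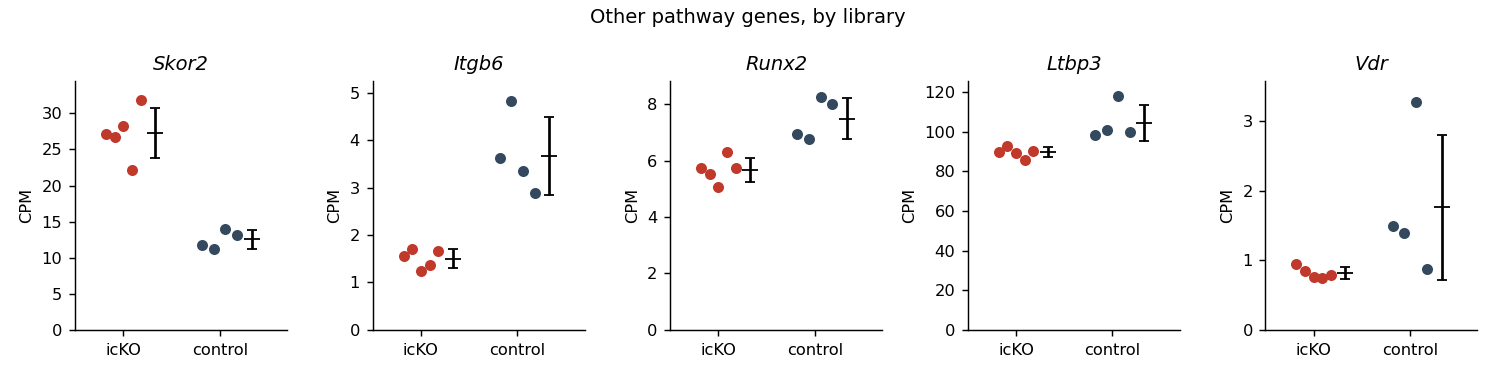
CPM of each library (points) with the group mean and SD (bars), icKO (n = 5) left of control (n = 4), for 5 other pathway genes from those with the smallest p. Skor2 and Itgb6 passed the test in opposite directions; the remaining 3 were lower in icKO without passing, and the mean of Vdr in control rests on control 3 at 3.28 CPM.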

How the data were processed

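RNA of mouse lumbar dorsal root ganglia was sequenced in 9 libraries, and groups were taken from the sample titles. The authors deposited raw counts of reads for 55536 Ensembl genes, in 1 table per library. The submitters' processing notes name featureCounts (1.5.0-p1), STAR (2.5.2a), bcl2fastq (2.20.0.422) and the mm10 build. The sources used here do not give the annotation, the use of strand or the treatment of multiply mapped reads. All 55536 identifiers were matched to a GENCODE annotation of that build for symbols, positions and exon lengths.

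All statistics were computed from the counts. Genes were kept with filterByExpr by group (minimum count 10, minimum total 15), which left 17258 genes with at least 99.9% of every library's counts. TMM factors scaled the counts, which were compared with the quasi-likelihood test of edgeR 4.0.16 (trended dispersion, R 4.3.3), with Benjamini-Hochberg adjustment over all tested genes and a threshold of 0.05. The biological coefficient of variation was 0.115. The SE was taken as |log2 fold change| / √F. A count of 3, taken as the limit of detection, corresponds to 0.1009 to 0.1546 CPM, for counting error only. Promoters came from a RefSeq table. The code was tested on simulated counts.

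The members and gene lists were chosen with earlier results of these data known, so no p over a list is given. The text gives per-library values for called members and the 2 with the smallest p of each role, levels for the 3 highest per kilobase of each role, and, of the other pathway genes, those called and the 4 next smallest p, of which 1 is not reported here. Genes outside that rule are named as such or given by their interval to account for all members. Alternatives were other scalings and filters, DESeq2 1.42.0, terms for the replicate number or the Y-linked class (high or low at 10 CPM), and leaving libraries out. Replicate numbers did not pair libraries, so no block was used. No label states that each library is a separate animal, and the spread behind the p-values may therefore be partly technical. Libraries of a group differed by more than counting noise (chi-square over its degrees of freedom, 6.03 to 23.2).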

Additional observations from a re-analysis of the deposited data

Results flagged for a closer look

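Of 102 groups of libraries examined for the described genes, 7 had 1 library apart from the rest by a gap test, and chance alone gives about 1 in 20 groups. In icKO, Inhba was low in icKO 5 at 1.03 CPM, against 1.44 to 1.57 CPM in the other icKO libraries. Smad6 was high in icKO 4 at 2.22 CPM, against 1.75 to 1.86 CPM, and Fstl1 was high in icKO 2 at 2934 CPM, against 2629 to 2703 CPM.

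In control, library 4 stood apart for a pair of genes. Smad5 was at 35.3 CPM there, above the 28.6 to 29.4 CPM of the other controls, and Id3 at 44.8 CPM, below their 48.8 to 49.4 CPM. The same library had the highest sum of spinal cord markers, 85.9 CPM against 20.5 to 23.3 CPM in the other controls, and Gfap at 29.7 CPM. Whether these markers bear on the Smad5 and Id3 values was not tested. Fst was high in control 1 at 4.95 CPM, against 2.45 to 2.81 CPM, and Ltbp3 was high in control 3 at 118 CPM, against 98.3 to 101 CPM.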

How the results depend on the processing

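Ism1 passed in 20 of 21 alternatives and Id2 in 10. Of 629 comparisons of named genes, 603 kept their side of the threshold, 15 lost and 11 gained a call, and none was called in the opposite direction. The count of higher members, 2, was 1 to 2 with single libraries left out, 1 with the replicate block, 1 without icKO 1 and control 2 (the highest in muscle markers, an alternative chosen after seeing the data), and 0 and 1 within the libraries with high and low Y-linked counts. The count of lower members, 0, was 2 without a count filter, 2 with DESeq2 and 0 to 1 with single libraries left out. Among the other pathway genes the higher count of 1 was 0 in the high class, and the lower count of 1 was 2 without a filter (with Vdr), 4 with DESeq2 (among them Runx2 and Ltbp3) and 0 in both classes.

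Over all genes, 82 were higher and 65 lower. The higher count was 172 without a filter, 194 with DESeq2, 28 with the replicate block, 0 and 11 in the high and low classes, 45 to 85 with single libraries left out, and 34 without icKO 1 and control 2. The lower count was 221, 227, 20, 3 and 9, 33 to 90, and 25 under the same settings, and 23 without icKO 3 and control 4. The cause was not tested. Same-numbered libraries deviated from their group means with correlations of -0.175 to 0.170, so the block tests a number, not a pairing.

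Levels per kb depend on the length used: with the longest transcript, Bmp1 was at 5.28 in control in place of 3.19, and Bmpr2 at 28.5 in place of 20.4. Genes with under about 50 counts, such as Grem1, Bmp2 and Inhba, had wide intervals, for example -0.34 to 0.65 on the log2 scale for Inhba.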

Other observations

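Several other pathway genes had higher levels per kilobase than most members, and the genes of this paragraph were chosen after their values were seen. Rgmb, a GPI-anchored BMP co-receptor that is also known as DRAGON and was first described in dorsal root ganglia, was at 39.7 CPM per kb in icKO and 42.4 in control, above each of the 46 members but Fstl1. Its log2 fold change was -0.10 (SE 0.07), which did not pass (edgeR, adjusted p = 0.713). Its binding partner gene Neo1 was at 5.63 CPM per kb in icKO and 5.31 in control, and the related co-receptor gene Rgma at 1.33 in icKO and 1.47 in control. Among secreted BMP antagonists, Nbl1 was at 91.5 CPM per kb in icKO and 78.4 in control, with a log2 fold change of 0.22 (SE 0.12) that did not pass (edgeR, adjusted p = 0.548). Sostdc1, another of them, was at 18.6 CPM per kb in icKO and 16.3 in control, with a log2 fold change of 0.19 (SE 0.07) that did not pass (edgeR, adjusted p = 0.336). Inha, the alpha subunit gene of inhibins, was at 8.80 CPM per kb in icKO and 8.24 in control, above the beta subunit genes Inhba and Inhbb in each group. These are levels in whole ganglia, and which cells carry the transcripts was not measured.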
